A study of Rattus norvegicus with 6 samples.

Results

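The 8 genes described here encode enzymes of cholesterol synthesis, Hmgcs1, Mvd, Idi1, Fdps, Fdft1, Sqle, Lss and Cyp51, measured in rat dorsal root ganglia. They are the array features (transcript clusters) annotated with one of these symbols, and they make up 9 of 68842 clusters, since Lss has a further cluster. Where a symbol had more than 1 cluster, the one with the highest mean signal over the 6 arrays stands for the gene. Diabetic rats (n = 3) had been given 65 mg/kg streptozotocin, a toxin of the insulin-producing beta cells, in 1 injection into the abdomen, and were kept in the study only if their non-fasting blood glucose reached 16.7 mM 1 week later. Control rats (n = 3) had been given citrate buffer. All were male Sprague-Dawley rats of 180 to 220 g at the start, assigned at random, and the lumbar ganglia of both sides were taken 8 weeks after injection and pooled within each rat, so each array is 1 animal.

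Cholesterol is built from acetyl-CoA through mevalonate and the isoprenoid units to squalene, which is closed into lanosterol and trimmed in further steps. Transcription of nearly all these enzymes is known to be driven together by the SREBP factors, which are released from the endoplasmic reticulum when membrane sterol runs low, and which act with the factors NF-Y and Sp1 bound nearby. In peripheral nerve the pathway is best known from Schwann cells, which make most of the cholesterol of their myelin themselves.

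Signals are log2 values per cluster, and every difference is given as diabetic minus control on that scale. Of all clusters, 4 passed a limma adjusted p of 0.05 (0.00581% of those tested). The 90th percentile of 1153 negative control probe sets, which marks background, lay at 6.06 to 6.27 in the diabetic arrays and 6.18 to 6.67 in the control arrays. Markers of sensory neurons had mean levels of 6.87 to 18.94, with the neurofilament gene Nefh brightest (18.92 ± 0.08 in diabetic and 18.95 ± 0.14 in control ganglia). Those of myelinating Schwann cells ran from 5.48 to 18.35, with Mag, a myelin glycoprotein, below background, and Sox10, the Schwann lineage factor, lay at it (6.17 in diabetic and 6.14 in control ganglia). The 5 fat cell markers lay at 3.06 to 4.16, below background. The array of control replicate 2 stood apart in skeletal muscle markers, with Acta1 at 9.06 against 6.86 to 7.35 in the other arrays, and that of control replicate 3 lay apart on the first principal component (-57.9, against -13.8 to 35.3).

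No cholesterol enzyme passed the test, and their means lay on both sides of the controls. In limma 0 of 8 passed the adjusted threshold, and 2 of 8 had an unadjusted p under 0.05, where 7.45% of coding clusters did. Both, Hmgcs1 and Idi1, were lower in diabetic ganglia, as were 3.35% of coding clusters at that p. They were also the 2 enzymes whose diabetic and control arrays did not overlap, where 15.1% of coding clusters showed no overlap in either direction and 6.91% with lower diabetic values. Means were lower in diabetic ganglia for 4 enzymes and higher for 4, where 50.5% of coding clusters had a lower mean. The median difference of the 8 was 0.006, against -0.002 over coding clusters and -0.04 over all clusters. The counts of Hmgcs1 and Idi1 are thus 2 genes of a small list, and neither passed the threshold once p was adjusted over all clusters. The plot of the enzymes by rat sets each group beside its spread.

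**Figure D1:**
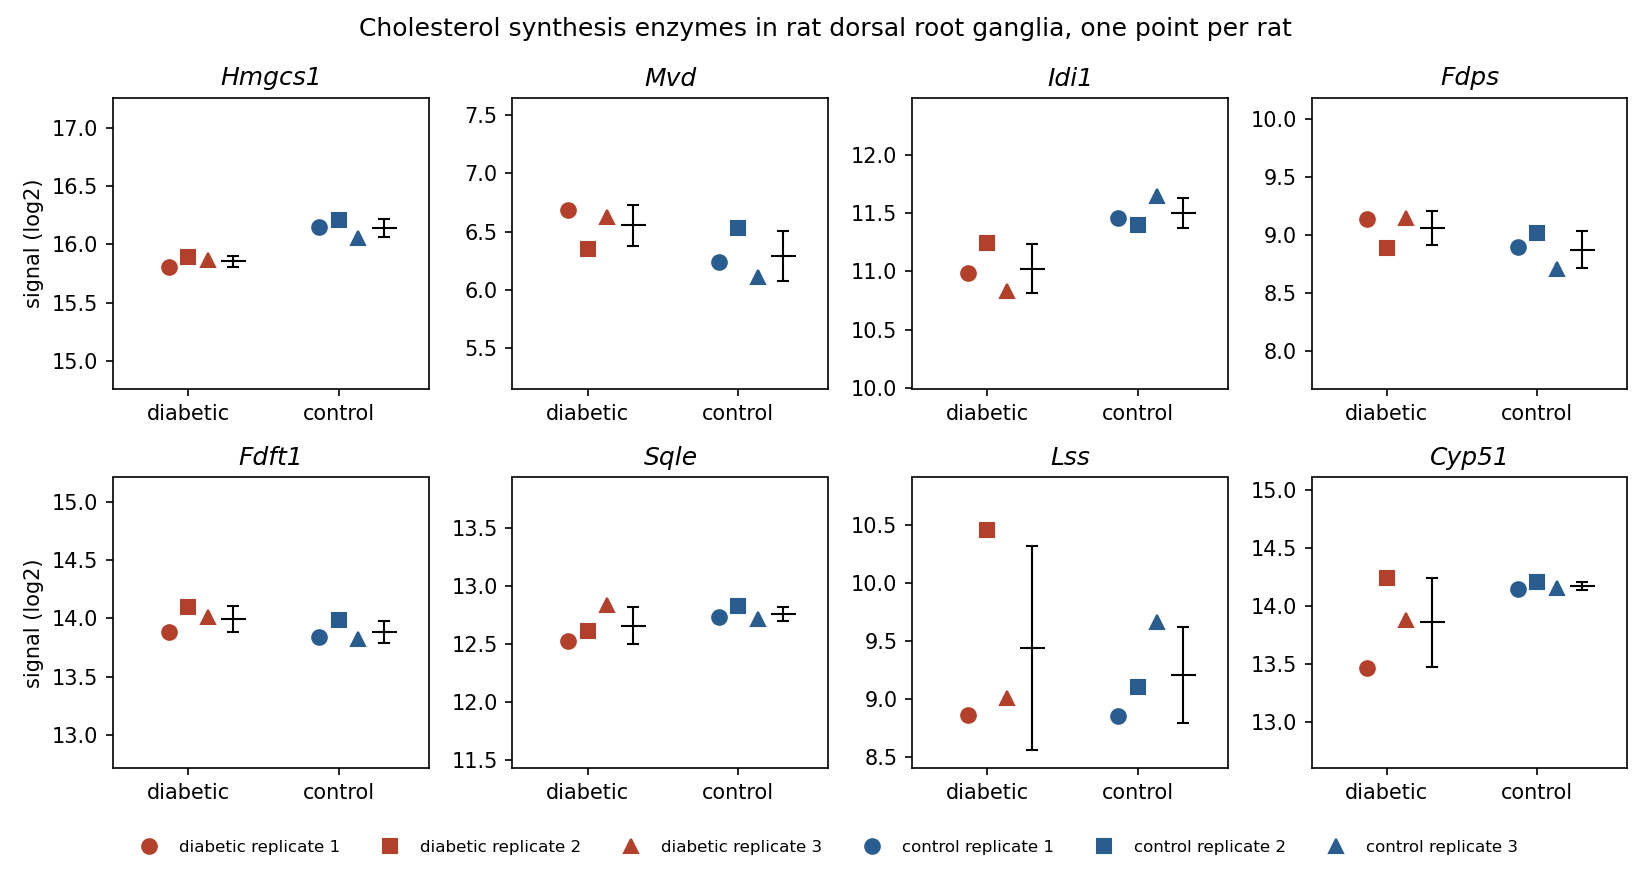
Log2 signal of the 8 enzymes in each of the 6 rats, in pathway order, with diabetic rats in red at the left and control rats in blue at the right of each panel. Bars give the mean and SD of 3 rats, and every panel spans the same height on the log2 scale. Only in the Hmgcs1 and Idi1 panels do all diabetic points lie below all control points, and Lss of diabetic replicate 2 lies at 10.45, far above the other diabetic points.

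Hmgcs1 encodes the cytosolic synthase that makes HMG-CoA, an early intermediate on the way to mevalonate. Its signal was 15.80, 15.89 and 15.87 in diabetic replicates 1 to 3, against 16.15, 16.21 and 16.06 in control replicates 1 to 3. All diabetic arrays lay below all control arrays, and both groups were tight. The difference was -0.29 (SE 0.11, limma adjusted p = 0.62), which is 0.820-fold with a 95% interval of 0.685 to 0.982 that is not adjusted for the number of clusters tested. The gene lies on the plus strand of chromosome 2 at 52427346 to 52445083 in the deposited annotation, whose genome build is not given in the sources used here.

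Idi1 encodes the isomerase that turns isopentenyl diphosphate into dimethylallyl diphosphate, the starter of isoprenoid chains. It had the largest negative difference of the 8. Its signal was 10.99, 11.25 and 10.83 in the diabetic rats, against 11.46, 11.40 and 11.65 in the control rats. The groups again did not overlap, and the gap between the nearest arrays, diabetic replicate 2 and control replicate 2, was narrower than the range within either group. The difference was -0.48 (SE 0.15, limma adjusted p = 0.57), or 0.718-fold (95% interval 0.568 to 0.907). Hmgcs1 and Idi1 kept a negative difference under each of 15 other ways of processing, with adjusted p from 0.40 to 0.97 for Hmgcs1 and from 0.33 to 0.97 for Idi1. Centring each array on its median let the Hmgcs1 groups overlap, while those of Idi1 stayed apart.

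Promoter sequences are shown for the enzymes whose groups were parted downwards, Hmgcs1 and Idi1, and for Mvd and Fdps, whose means were higher in diabetic ganglia, because these 4 genes are known targets of the same factors and yet did not share a direction. RefSeq sequences of 250 bases before to 50 after the start of the gene (build GRCr8, which is not the build of the array annotation) were matched for 6 of the 8, with none for Fdft1 and Sqle. Each is written along the strand of its gene, and capitals mark the NF-Y box CCAAT, which reads ATTGG where it lies on the opposite strand. Hmgcs1 is at chr2:53382054-53382353 (plus strand), Idi1 at chr17:66547475-66547774 (minus), Mvd at chr19:67414925-67415224 (minus) and Fdps at chr2:176804767-176805066 (minus).
Hmgcs1: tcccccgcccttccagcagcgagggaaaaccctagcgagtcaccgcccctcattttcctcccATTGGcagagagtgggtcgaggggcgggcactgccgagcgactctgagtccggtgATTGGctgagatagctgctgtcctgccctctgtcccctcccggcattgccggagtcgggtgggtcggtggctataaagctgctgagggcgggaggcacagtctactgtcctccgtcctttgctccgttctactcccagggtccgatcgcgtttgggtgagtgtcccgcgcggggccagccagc
Idi1: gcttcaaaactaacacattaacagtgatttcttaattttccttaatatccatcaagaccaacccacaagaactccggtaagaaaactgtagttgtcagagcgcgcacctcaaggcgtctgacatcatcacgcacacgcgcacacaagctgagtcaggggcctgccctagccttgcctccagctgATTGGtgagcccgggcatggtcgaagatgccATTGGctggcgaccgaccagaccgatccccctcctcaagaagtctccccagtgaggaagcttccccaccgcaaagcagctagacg
Mvd: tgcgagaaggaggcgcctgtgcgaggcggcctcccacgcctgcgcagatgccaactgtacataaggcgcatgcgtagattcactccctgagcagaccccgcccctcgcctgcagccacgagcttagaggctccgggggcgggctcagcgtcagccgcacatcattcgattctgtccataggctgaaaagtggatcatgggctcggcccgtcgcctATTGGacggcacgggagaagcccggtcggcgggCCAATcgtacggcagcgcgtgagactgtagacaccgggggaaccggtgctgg
Fdps: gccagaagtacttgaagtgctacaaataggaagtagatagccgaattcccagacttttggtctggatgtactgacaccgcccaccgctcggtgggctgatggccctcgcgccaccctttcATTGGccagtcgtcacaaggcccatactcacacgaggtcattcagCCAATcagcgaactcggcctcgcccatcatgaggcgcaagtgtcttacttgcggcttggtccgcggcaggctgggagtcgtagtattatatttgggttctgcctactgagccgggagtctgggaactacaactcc
Each of these 4 windows holds 2 NF-Y boxes, in Hmgcs1 at positions -188 and -133 from the gene's start, and in Idi1 at -66 and -35, all on the opposite strand. Lss has 1 box and Cyp51 has 0. Of 33469 rat promoters of this length, 37.5% hold at least 1 box on either strand and 11.2% hold 2 or more. The Sp1 box GGGCGG was found in 5 of the 6 windows, all but that of Idi1, and in 33.1% of all promoters. The sterol regulatory element searched, TCACNCCAC on either strand, was in 0 of the 6 windows and in 1.12% of all promoters, which says only that these letters are not in these windows. No motif searched lies inside another. As the 4 genes were chosen for both signs of the mean difference, their windows cannot show whether the boxes go with a direction. The part of these motifs in the differences was not tested.

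Mvd and Fdps flank Idi1 in the pathway and had means of the other sign. Mvd, the decarboxylase that makes isopentenyl diphosphate, was at 6.68, 6.35 and 6.63 in the diabetic rats, against 6.24, 6.53 and 6.11 in the control rats. The groups overlapped, as diabetic replicate 2 lay below control replicate 2. The difference was 0.26 (SE 0.15, 95% interval -0.07 to 0.60, limma adjusted p = 0.68). These signals lie close to the background limit, and in control replicates 1 and 3 below it. Its cluster (chromosome 19, minus strand, 55207295 to 55269087) also spans Cyba, a subunit gene of the phagocyte NADPH oxidase on the same strand, which was at 7.41, 7.88 and 7.78 in diabetic and 7.42, 6.996 and 7.29 in control ganglia. Whether probes are shared between these clusters was not tested.

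Fdps joins isoprenoid units into farnesyl diphosphate, the branch point towards sterols, ubiquinone and prenylated proteins. It was at 9.14, 8.89 and 9.15 in the diabetic rats, against 8.90, 9.02 and 8.70 in the control rats. Diabetic replicate 2 was the low one of its group and lay among the controls. The difference was 0.19 (SE 0.14, 95% interval -0.12 to 0.50, limma adjusted p = 0.73). Over the neighbouring steps the differences were therefore 0.26 for Mvd, -0.48 for Idi1 and 0.19 for Fdps.

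Fdft1 and Sqle, the first enzymes committed to sterols, had the smallest differences of the 8. Fdft1, which joins a pair of farnesyl diphosphates into squalene, was at 13.88, 14.10 and 14.01 in the diabetic rats, against 13.84, 13.99 and 13.83 in the control rats. The difference was 0.11 (SE 0.12, 95% interval -0.17 to 0.40, limma adjusted p = 0.81). Sqle, the epoxidase of squalene and a rate-limiting step of the sterol branch, was at 12.53, 12.61 and 12.83 in the diabetic rats, against 12.73, 12.82 and 12.72 in the control rats. Diabetic replicate 3 was the highest array of all and the other diabetic arrays the lowest. The difference was -0.10 (SE 0.13, 95% interval -0.40 to 0.20, limma adjusted p = 0.84).

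Lss, the cyclase that folds oxidosqualene into lanosterol, varied more between rats than between groups. Its lead cluster was at 8.87, 10.45 and 9.01 in the diabetic rats, against 8.86, 9.11 and 9.67 in the control rats. Diabetic replicate 2 stood far above the other arrays and control replicate 3 came next, so the SD was 0.88 in diabetic and 0.41 in control ganglia. The difference was 0.23 (SE 0.40, 95% interval -0.69 to 1.15, limma adjusted p = 0.88). Without diabetic replicate 2 it was -0.27 (adjusted p = 0.69), so that 1 rat decides the sign.

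The further Lss cluster had the same pattern over the rats. It was at 7.57, 8.91 and 7.93 in the diabetic rats, against 7.80, 7.85 and 8.57 in the control rats, with diabetic replicate 2 and control replicate 3 again the highest arrays. Its difference was 0.06 (SE 0.34, limma adjusted p = 0.97). This cluster, the one with more probes (274), is the one the annotation ties to the RefSeq transcript, which spans 12842884 to 12870518 of chromosome 20, minus strand, while the lead cluster has 30 probes over 1360 bases on the same strand at 13183229 to 13184588. Fabp7, a marker of satellite glial cells chosen here after its values were seen, was also highest in these rats of each group. It was at 6.85, 8.69 and 7.83 in diabetic and 7.66, 6.997 and 9.61 in control ganglia. Some other satellite glial markers also peaked in both of these rats, while others, among them Glul and Kcnj10, did not. The part of these markers in the Lss values was not tested.

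**Figure D2:**
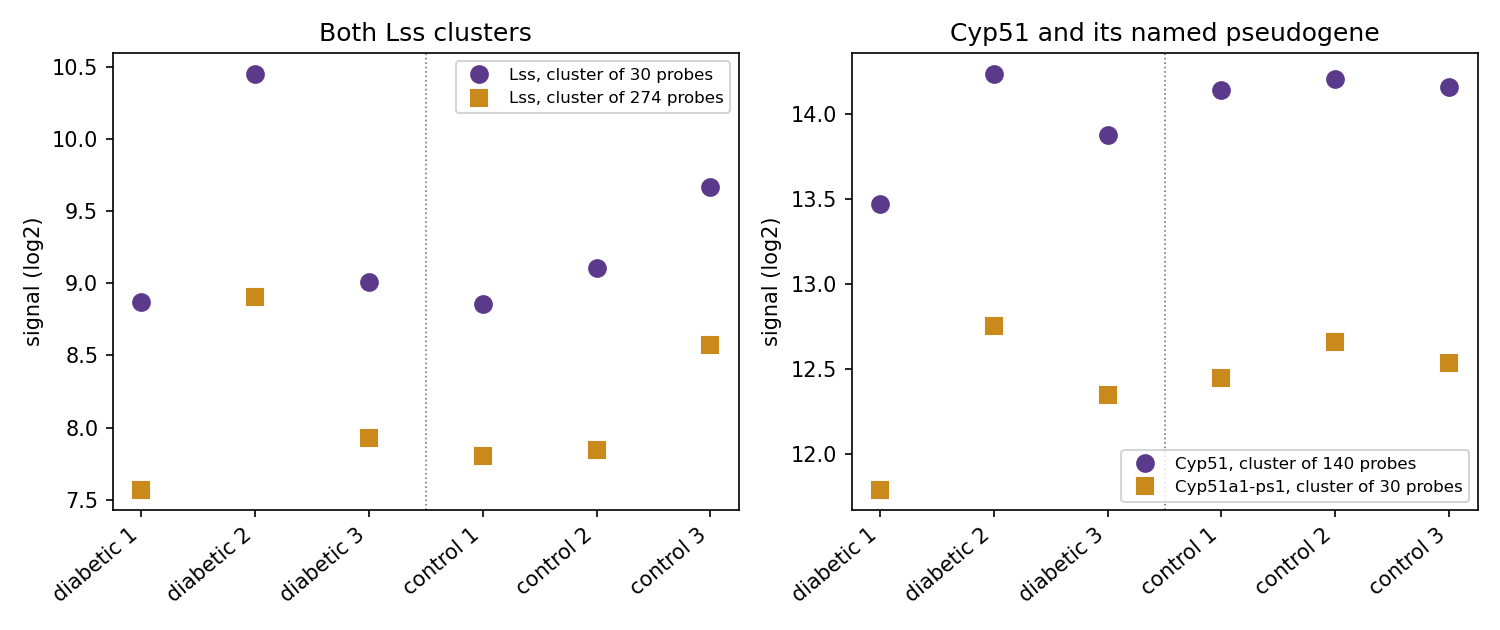
Log2 signal in each rat, diabetic rats left of the dotted line and control rats right of it, for both clusters annotated as Lss (left panel) and for Cyp51 with its named pseudogene (right panel). Both Lss clusters peak in diabetic replicate 2 and control replicate 3, and both Cyp51 clusters are lowest in diabetic replicate 1, at 13.47 and 11.79.

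Cyp51 encodes the cytochrome P450 that removes a methyl group from lanosterol, the first trimming step. It was at 13.47, 14.24 and 13.88 in the diabetic rats, against 14.14, 14.21 and 14.16 in the control rats. The control arrays were close to each other, with an SD of 0.03, while the diabetic arrays spread on both sides of them, with an SD of 0.38. The difference was -0.31 (SE 0.19, 95% interval -0.74 to 0.12, limma adjusted p = 0.69), -0.11 without diabetic replicate 1 and -0.50 without diabetic replicate 2. The cluster named Cyp51a1-ps1, a processed copy by its name, followed the same order in the diabetic rats, at 11.79, 12.76 and 12.35, against 12.45, 12.66 and 12.54 in the control rats. Which of the copies the probes detect was not tested, so the values of Cyp51 may hold signal of both.

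The other 13 enzymes of the pathway were measured too, and 0 of 13 passed in limma in either direction, with 0 of 13 at an unadjusted p under 0.05. Their differences ran from -0.23 to 0.17 with a median of -0.005, 7 lower and 6 higher. The groups of 3 did not overlap, 2 lower, Ebp among them, and 1 higher. Of coding clusters, 15.1% showed no overlap, and 6.91% with lower diabetic values. The higher one was Msmo1, which acts later in trimming the sterol. It was at 13.29, 13.47 and 13.33 in diabetic and 13.24, 13.08 and 13.27 in control ganglia (difference 0.17, SE 0.12, adjusted p = 0.73).

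Late steps had differences of both signs. Nsdhl (-0.17), Hsd17b7, Ebp (-0.09) and Sc5d, consecutive in the order used here, were all lower, while Msmo1 before them and Dhcr7 after them were higher. Sc5d, a sterol desaturase, had the lowest mean difference of the 13 (-0.23, SE 0.14, limma adjusted p = 0.69), and that of Hsd17b7, a sterol ketoreductase, was -0.21 (SE 0.16, adjusted p = 0.74). The late reductase Dhcr7, at 7.87 ± 0.06 in diabetic and 7.82 ± 0.17 in control ganglia (SD, n = 3 per group), differed by less than its spread. Over all 21 enzymes, 11 means were lower and 10 higher, and the groups of 5 did not overlap, 4 lower and 1 higher, where 15.1% of coding clusters showed no overlap and 6.91% with lower diabetic values. The 95% intervals are of single genes and are not adjusted for the number of clusters tested. Apart from Lss (-0.69 to 1.15), those of the 8 enzymes lay between -0.82 and 0.60.

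**Figure D3:**
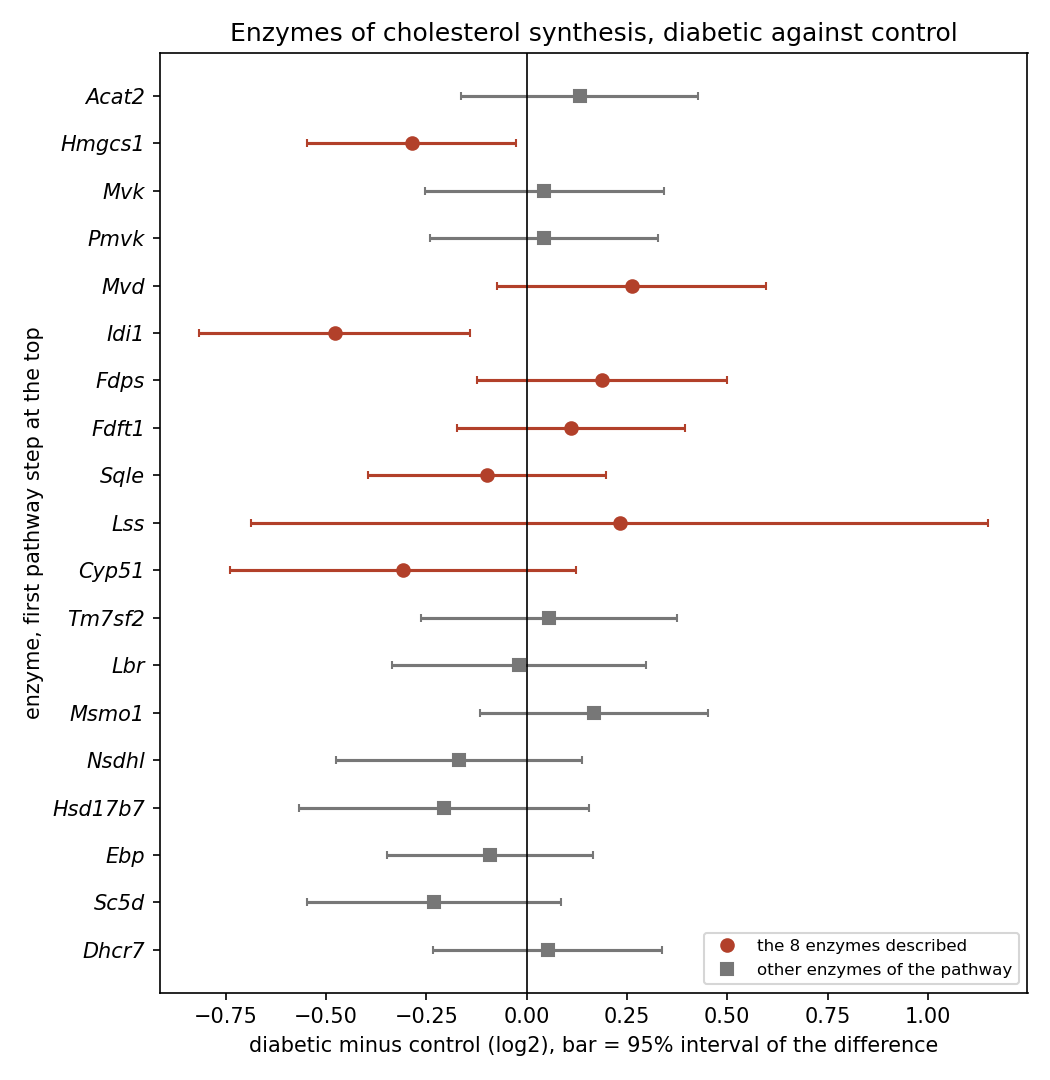
Difference of diabetic minus control ganglia (log2) for enzymes of the pathway in order from top to bottom, with 95% intervals from limma that are not adjusted for the number of clusters tested. Red circles are the 8 enzymes described and grey squares other enzymes of the pathway. The intervals of Hmgcs1 and Idi1 alone lie wholly below 0, and Idi1 differs in sign from its neighbours Mvd and Fdps.

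No gene that senses sterol or processes SREBP passed the test. Of 13, 0 passed in limma and 0 had an unadjusted p under 0.05, with 4 means lower, 9 higher and a median difference of 0.02. Srebf2, which encodes the SREBP that favours cholesterol genes, was at 9.99 ± 0.34 in diabetic and 9.84 ± 0.13 in control ganglia. Scap, its escort protein, was at 9.34 ± 0.23 and 9.07 ± 0.30, and Insig1, the retention protein and itself an SREBP target, at 10.56 ± 0.05 and 10.60 ± 0.15 (diabetic and control, SD, n = 3 per group). Erlin1 and Erlin2, whose products bind the sterol sensor complex, had differences of -0.11 and 0.14. The groups of all 13 overlapped.

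Of 12 uptake and transport genes, 0 passed in limma and 0 had an unadjusted p under 0.05. Lipa, the lysosomal lipase that frees cholesterol from its esters, had a difference of -0.28, and Scarb1, a lipoprotein receptor, one of 0.23 (adjusted p = 0.65 for both). Nr1h4, a bile acid receptor gene, lay below background in both groups (3.56 and 3.44 in diabetic and control ganglia). In the branches towards prenyl groups and ubiquinone, 0 of 10 passed and 0 had an unadjusted p under 0.05, with Fntb, a farnesyltransferase subunit, at 0.23, Pdss2 at 0.21 and Coq2, both of ubiquinone synthesis, at 0.15.

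Among genes that answer to oxysterols or export cholesterol, 0 of 10 passed in limma. An unadjusted p under 0.05 was reached by 2, both lower, where 3.35% of coding clusters were lower at that p. Abca1, the main cholesterol exporter, was at 9.74, 9.97 and 10.06 in the diabetic rats, against 10.16, 10.16 and 10.44 in the control rats, without overlap (difference -0.33, SE 0.14, adjusted p = 0.64). Nr1h3, an oxysterol receptor that drives Abca1, was at 5.36, 5.53 and 5.37 in diabetic and 5.92, 5.66 and 5.90 in control ganglia, also without overlap but below background in both groups (adjusted p = 0.54). Its paralogue Nr1h2 was at 8.61, 8.41 and 8.38 in diabetic and 8.24, 8.30 and 8.02 in control ganglia, without overlap but higher (difference 0.28, adjusted p = 0.64). Of 9 esterification and oxidation genes 0 passed and 0 had an unadjusted p under 0.05, with Lcat, a plasma acyltransferase, at -0.33, and below background Cyp46a1, a neuronal cholesterol hydroxylase, at 0.18 and Hsd3b7, of bile acid synthesis, at -0.16.

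Ketone body genes draw on the same HMG-CoA intermediate in another compartment. Acat1, the mitochondrial thiolase, was at 11.52, 11.26 and 11.64 in diabetic and 10.95, 11.15 and 10.95 in control ganglia, without overlap (difference 0.46, SE 0.14, adjusted p = 0.57). Of the 5 genes 0 passed, and Bdh1, the ketone body dehydrogenase, had a difference of 0.08.

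Fatty acid genes, also SREBP targets, had more and larger negative differences than the cholesterol enzymes, a contrast that was not tested. Of 13, 0 passed in limma, and the median difference was -0.20. The groups of 5 did not overlap, all lower, where 6.91% of coding clusters showed no overlap with lower diabetic values. An unadjusted p under 0.05 was reached by 6 of the 13, all lower, where 3.35% of coding clusters were lower at that p. These 6 were desaturase and elongase genes, among them Elovl6 (16.09 ± 0.22 in diabetic and 16.85 ± 0.26 in control ganglia, adjusted p = 0.53), Elovl1 (11.21 ± 0.52 and 12.07 ± 0.35 in the same order, adjusted p = 0.57) and Scd (12.92 ± 0.28 and 13.51 ± 0.18, adjusted p = 0.55, SD, n = 3 per group). The Elovl6 values are of the brightest of 3 clusters with that symbol, which has 30 probes and no chromosome position in the annotation. Fasn, the fatty acid synthase itself, was at 11.92 ± 0.37 and 12.06 ± 0.27 (adjusted p = 0.86).

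Markers of myelinating Schwann cells had lower means in diabetic ganglia. Of 15 markers 14 had a lower mean and 13 did not overlap between groups, all 13 lower, with a median difference of -0.54 and 0 past the adjusted threshold in limma. Of coding clusters, 50.5% had a lower mean and 6.91% showed no overlap with lower diabetic values. The mean signal over the list lay between 10.21 and 10.68 in the diabetic rats, against 11.11 to 11.20 in the control rats. Pmp2, a lipid-binding myelin protein, was at 10.58, 12.01 and 10.53 in the diabetic rats, against 13.69, 13.01 and 13.66 in the control rats (limma adjusted p = 0.50). Mal, a myelin membrane protein, had the smallest p (difference -1.32, adjusted p = 0.057). The mean over the 8 cholesterol enzymes overlapped instead, at 11.42, 11.72 and 11.53 in the diabetic rats, against 11.54, 11.66 and 11.61 in the control rats. Without Lss it was 11.78, 11.90 and 11.89 in the diabetic rats, against 11.92, 12.03 and 11.89 in the control rats, so that the groups overlapped only through diabetic replicate 2 and control replicate 3. The part of these markers in the Hmgcs1, Idi1 and Cyp51 values was not tested, and in whole ganglia fewer cells of a type and less RNA per cell cannot be told apart.

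Markers of other cells gave mixed differences, and 0 of those named passed in limma. Satellite glial markers had a lower mean in 6 of 8, with list means of 8.80 to 9.54 in diabetic and 9.25 to 10.12 in control ganglia, with differences of -0.85 for Kcnj10, their potassium channel, and 0.19 for Glul, glutamine synthetase. Sensory neuron markers had a higher mean in 12 of 15, with list means of 14.35 to 14.62 in diabetic and 14.24 to 14.58 in control ganglia, and Isl1, a transcription factor, had a difference of 0.43. Macrophage markers had a higher mean in 8 of 10, with list means of 6.17 to 6.69 in diabetic and 5.67 to 6.40 in control ganglia and differences of 0.90 for Cd163, a scavenger receptor, and 0.28 for C1qa, a complement subunit. Fibroblast markers had a lower mean in 4 of 6, with list means of 8.74 to 9.67 in diabetic and 9.59 to 10.45 in control ganglia and differences of -2.02 for Col1a1, a collagen, and 0.25 for Dcn, decorin. Their part in the enzyme values was not tested.

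**Figure D4:**
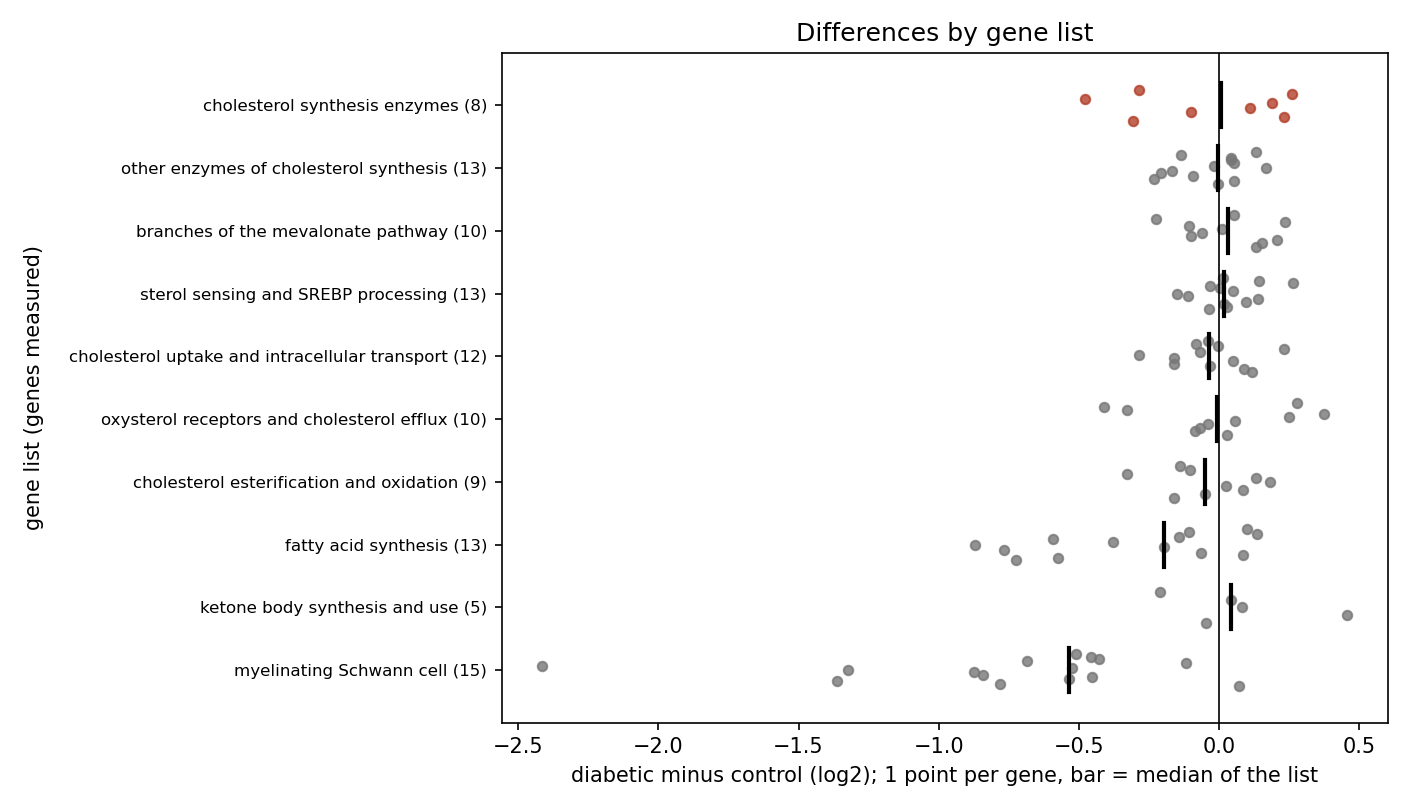
Difference of diabetic minus control ganglia (log2) for every measured gene of 10 lists, 1 point per gene, with the median of each list as a black bar. The 8 cholesterol enzymes, in red, lie on both sides of 0 with a median of 0.006, while the medians of the fatty acid genes and of the myelinating Schwann cell markers lie at -0.20 and -0.54.

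Averaged together, the 8 enzymes had a profile with a range of 0.30 over the 6 arrays. The mean over the other 13 enzymes of the pathway varied less, at 10.13 to 10.22 in diabetic and 10.16 to 10.22 in control ganglia. The ranges of single enzymes ran from 0.27 (Fdft1) to 1.59 (Lss), and differences of opposite sign offset each other in the average. Each gene was set to its own mean over the 6 arrays and the 8 were averaged, which gave -0.16, 0.14 and -0.05 in diabetic replicates 1 to 3, against -0.04, 0.08 and 0.03 in control replicates 1 to 3. The highest value, that of diabetic replicate 2, rested on Lss. Without Lss, a choice made after seeing the data, the other 7 enzymes gave -0.12, 0.002 and -0.02 in the diabetic rats, against 0.02, 0.12 and -0.01 in the control rats, with control replicate 2 highest and diabetic replicate 1 lowest. Of 11747 coding clusters above the median level and in none of the lists, the 6 closest to the profile of all 8 were neeklo, RGD1564792, Ndufaf2, Atat1, LOC685363 and Snapc2, with a root mean square distance of 0.03 to 0.04 over the 6 arrays, where the median cluster had 0.187. Their own differences lay between -0.06 and -0.02 (limma adjusted p from 0.90 to 0.97), which follows from choosing them by closeness to this profile. Ndufaf2, Atat1 and LOC685363 lay below background in every array, and RGD1564792 lay close to it.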

How the data were processed

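RNA of lumbar ganglia from 6 rats was measured on 1 Affymetrix rat transcriptome array each, from 100 ng of total RNA. Each deposited value is a log2 signal of a transcript cluster, made by the authors with gene-level SST-RMA per the file headers (column names) and RMA per the submitters' processing notes. RMA equalises the probe signals between arrays and can compress differences of dim clusters. How far this compression holds for the SST-RMA values here was not tested. No source used here gives the software version or genome build. The value table of the series held the same numbers (0 cells differing), and the detection calls, 423480 in all, were not used because all read absent.

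Of 70580 probe sets, 1738 controls were left out. All 68842 clusters were fitted with limma 3.58.1 in R 4.3.3, group as the only term and eBayes with an intensity trend, and p-values were adjusted (Benjamini-Hochberg) over all of them, with no filter on dim clusters. All 8 enzymes also passed the alternative filter at the median level. The fit was tested on simulated data. An exact permutation test of 3 against 3 rats has 0.1 as its smallest two-sided p and was not used. The number of arrays limits the precision. All 178 listed genes were found on the array, 1 of them (Scd) by an older symbol from the GRCr8 gene table.

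The enzymes and gene lists were chosen with earlier results of these data known, so no test was made of a list, and lists are described by counts and medians. Named genes were all 8 enzymes, up to 3 genes of smallest p and the gene of largest difference per pathway list, 12 fixed genes, and the brightest and the smallest-p marker of cell type lists described. Some genes that this rule names are not reported here. Exceptions chosen after their values were seen are Fabp7, Mag, Sox10, Nsdhl, Ebp, Cyp51a1-ps1, Cyba and sheyjar. Profiles were compared by root mean square distance, and promoters were RefSeq windows of 300 bases. Alternatives were array scaling, variance estimation, array weights, filters, the replicate block, cluster choice and leaving out each array.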

Additional observations from a re-analysis of the deposited data

How the results depend on the processing

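Under 15 alternatives, 0 of 120 enzyme results reached an adjusted p of 0.05 in limma, the lowest being 0.33, and 4 or 5 of the 8 enzymes had a lower diabetic mean. The sign of a difference changed in 1 of the 120, that of Lss without diabetic replicate 2 (-0.27). The median difference of the 8 was 0.08 after median centring, and with 1 array left out it lay between -0.17 (without diabetic replicate 2) and 0.056, that of Lss between -0.27 and 0.52. The number of enzymes without overlap was 1 after median centring and 4 after quantile normalization, and with 1 array left out it lay between 2 and 5, with 5 without diabetic replicate 2 and 4 without control replicate 2. Clusters past the threshold numbered 2 with the filter at the median level and between 1 and 5 with 1 array left out, with 1 without control replicate 2 and 2 without diabetic replicate 1 or control replicate 3. The cause of these changes was not tested. By its definition, the number of enzymes without overlap can only stay or rise when an array is left out. Replicate numbers are shared between the groups without a stated pairing, and deviations of same-numbered arrays correlated at 0.041, -0.119 and -0.132. In the fit with a replicate block, 3 clusters and 0 enzymes passed and the enzyme median was 0.006. Signal near background limits what could be seen for Mvd, and the spread between rats (SE 0.40) for Lss.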

Other observations

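At the Fdft1 locus, sheyjar, a short transcript without a gene assignment, lies within the annotated span of Fdft1 on the opposite strand (chromosome 15, 46338118 to 46339188). It was at 9.39, 8.54 and 9.42 in the diabetic rats, against 8.45, 8.54 and 8.14 in the control rats. Diabetic replicates 1 and 3 lay above all controls and diabetic replicate 2 beside them. The difference was 0.74 (SE 0.24, limma adjusted p = 0.58), against 0.11 for Fdft1 itself.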
